A study of Homo sapiens with 33 samples.

Results

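Described here are 8 genes for enzymes that relay or restrain signals from immune receptors in myeloid cells. They are the SRC-family kinases FGR, LYN and FYN, the kinase SYK, the TEC-family kinases TEC and BTK, and the tyrosine phosphatases PTPN6 and PTPN22. They were chosen by name, with their values in these samples already known, and are 8 of the 19775 genes represented on the arrays by a probe set assigned to a single gene, or 20 of 41091 such probe sets. Total RNA came from THP-1 cells, an established human monocytic leukaemia line, with 1 array per independently treated well. At 40 h there were 5 wells given all-trans retinoic acid (RA, 20 nM) for 40 h and tumor necrosis factor (TNF, 5 ng per ml) for the last 24 h, 5 wells given TNF alone for 24 h, 5 wells given RA alone for 40 h, and 6 vehicle wells. RA was renewed after 16 h in the wells kept to 40 h, and the vehicle was 0.1% ethanol. A time course without TNF had 2 wells after 2 h of RA, 2 after 6 h, 3 after 16 h and 2 after 40 h, against 8 vehicle wells. Its 2 wells after 40 h of RA and 3 of its vehicle wells are also counted in the 40 h groups above. The 40 h values of the time course are therefore no independent repeat of RA against vehicle. The treatment protocols have 5 of the 8 vehicle wells harvested at 16 h and 3 at 40 h, whereas the titles of all 8 say 0 h. The protocols were followed here, so the age of the vehicle wells in the time course is not settled by the labels. The same holds for the 3 of them that are among the 6 vehicle wells of the 40 h groups. All wells are of a single cell line, so the spread between wells is not a spread between donors.

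In myeloid cells, receptors for antibodies, fungal sugars and surface ligands signal through tyrosine motifs called ITAMs, either in their own tails or in the adaptors FCER1G and TYROBP. SRC-family kinases phosphorylate the motif, SYK docks on it and is activated, and TEC-family kinases then help to activate phospholipase C gamma and calcium signalling. Inhibitory receptors carry ITIM motifs, also phosphorylated by SRC-family kinases, which recruit phosphatases such as PTPN6 (SHP-1). PTPN22 removes activating phosphates from SRC and SYK family kinases.

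Signals are given in array units recovered from the deposited values, on a scale where the trimmed mean of every array is 150. Log2 differences with their standard errors come from a linear model of the deposited values, which are relative to each array's own median, so the 2 scales can differ by the ratio of array medians (18.9 to 45.2 units). Levels are compared between groups within a probe set and not between genes. Because the genes were picked with these contrasts known, their values are a description with no p-value, and counts of calls among them carry no weight as evidence. The arrays fall into set 1 (12 arrays) and set 2 (21 arrays) by their record numbers in the labels. Each 40 h group has arrays in both, and the time course lies in set 2. The 3 vehicle wells of the 40 h groups in set 2 are those whose titles say 0 h.

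The labelled cell type was checked against its markers. ITGAM, CSF1R, LYZ and CSF3R lay above the array median on all 33 arrays and CD14 on 28. MPO did so on 18. All 7 T and NK cell markers, CD3D, CD3E, CD3G, CD2, CD8A, NCR1 and KLRD1, lay below it on most arrays, with summed signals of 73.2 to 191 units with RA plus TNF, 76.9 to 205 with TNF, 52.1 to 152 with RA and 73.4 to 248 with vehicle at 40 h. Of the B cell markers, CD79A was above the median on 32 arrays, CD79B on 24, PAX5 on 22 and MS4A1 on 5. The 4 summed to 143 to 219, 142 to 226, 164 to 290 and 137 to 304 units in the same order of groups, so the groups overlapped. Their part in the results below was not tested. Megakaryocyte and mast cell markers (5 genes) summed to 61.8 to 150 units with RA plus TNF, 88.8 to 160.2 with TNF, 87.4 to 159 with RA and 50.3 to 207 with vehicle, and 4 fibroblast markers to 72.4 to 149, 54.8 to 166, 43.5 to 190 and 57.8 to 91.8. Of these genes GP1BA lay above the array median on 28 arrays and DCN on 19, and the rest lay below it on most arrays. The 6 myeloid markers summed to 5258 to 6817 units with RA plus TNF, 3181 to 4225 with TNF, 3886 to 5475 with RA and 3141 to 4640.1 with vehicle, so RA plus TNF lay above TNF and vehicle and overlapped with RA. The summed signal of 5 RA-responsive genes was 2737 to 3842 units with RA plus TNF and 2496 to 3584 with RA, against 328 to 401 with TNF and 252 to 305 with vehicle, and that of 3 TNF-responsive genes was 9532 to 15508 with RA plus TNF and 8451 to 13409 with TNF, against 681 to 1014 with RA and 827 to 2017 with vehicle. Of the 5 RA-responsive genes CD38 lay above the array median on 33 arrays, DHRS3 on 28, HIC1 on 17, RARB on 12 and CYP26A1 on 7. RARB and CYP26A1 were low, with highest readings of 77.9 and 93.1 units. Changes in total RNA per cell cannot be seen on arrays scaled in this way, and a change in some cells cannot be told apart from a smaller change in all.

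Promoter sequence is shown for FGR, PTPN22 and TEC, which differed from vehicle by 1.98 ± 0.21 with RA, -3.18 ± 0.50 with TNF and -2.50 ± 0.56 with both together on the log2 scale. The size for TEC rests on low signals, and with both agents FGR differed by 2.32 ± 0.21. Each line gives the 250 bases before an annotated transcription start, from RefSeq on GRCh38.p14, read 5′ to 3′ on the minus strand, where all 3 genes lie. Capitals mark GAGGAA or its reverse complement, the core bound by the myeloid factor PU.1 and other ETS proteins.
FGR (chr1:27635186-27635435): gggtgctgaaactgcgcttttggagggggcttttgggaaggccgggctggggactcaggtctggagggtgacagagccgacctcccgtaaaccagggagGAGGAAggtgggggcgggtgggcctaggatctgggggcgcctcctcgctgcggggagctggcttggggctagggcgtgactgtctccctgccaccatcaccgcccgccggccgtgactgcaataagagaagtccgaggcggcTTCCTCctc
PTPN22 (chr1:113871713-113871962): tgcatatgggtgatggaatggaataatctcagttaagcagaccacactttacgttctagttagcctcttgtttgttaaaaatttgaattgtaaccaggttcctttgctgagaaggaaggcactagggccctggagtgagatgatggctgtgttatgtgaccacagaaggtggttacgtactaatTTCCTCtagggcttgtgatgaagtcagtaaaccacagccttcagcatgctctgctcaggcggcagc
TEC (chr4:48269839-48270088): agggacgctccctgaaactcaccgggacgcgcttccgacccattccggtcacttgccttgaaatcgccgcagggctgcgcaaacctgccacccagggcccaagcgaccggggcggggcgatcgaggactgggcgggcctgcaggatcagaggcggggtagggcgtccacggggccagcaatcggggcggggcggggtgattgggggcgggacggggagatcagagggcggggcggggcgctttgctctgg
The 6-letter core was found 2 times before this FGR start, at -151 to -146 and at -9 to -4, 1 time before the PTPN22 start at -66 to -61, and not in the TEC window. It occurs in 23.6% of 35116 promoter windows of this length. The retinoid receptor half-site AGGTCA and a pattern resembling NF-kB (kappa B) sites were each searched on both strands. The NF-kB-like pattern was 3 G, any 2 letters, 3 T and 2 C. The half-site occurs in 12.1% of all windows and the pattern in 1.73%, and neither occurs in these 3 windows. The pattern is not the kappa B consensus, which was not searched, so kappa B sites with other letters would be missed. Among the 15 windows of the 7 genes in the table, which include alternative starts, the half-site was found only before a BTK start at -55 to -50. The NF-kB-like pattern, as searched, was found only before a SYK start, at -239 to -230 and at -45 to -36. The second match overlaps the last letters of a GAGGAA match at -47 to -42. A match of letters is no evidence of binding, and LYN has no entry in the table.

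FGR, a SRC-family kinase mainly of neutrophils, monocytes and macrophages, had the largest difference with RA of the 8 genes. Its only probe set read 735, 776, 687, 1089.9 and 1127 units in the 5 wells given RA plus TNF, 315, 367, 359, 350.2 and 305 with TNF alone, 673, 637, 563, 904 and 900.1 with RA alone, and 102 to 344, with a median of 193 in the 6 vehicle wells. Every well with RA, with or without TNF, lay above every well without RA. TNF and vehicle overlapped through vehicle replicate 1, the highest vehicle well at 344 units. The log2 difference was 2.32 ± 0.21 for RA plus TNF against vehicle, 0.90 ± 0.21 for TNF and 1.98 ± 0.21, or 3.94-fold, for RA. With TNF present RA made a difference of 1.42 ± 0.21, and adding TNF to RA one of 0.34 ± 0.21, which is under 2 standard errors. The RA difference was 1.63 ± 0.29 within array set 1 and 2.43 ± 0.22 within set 2.

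**Figure D1:**
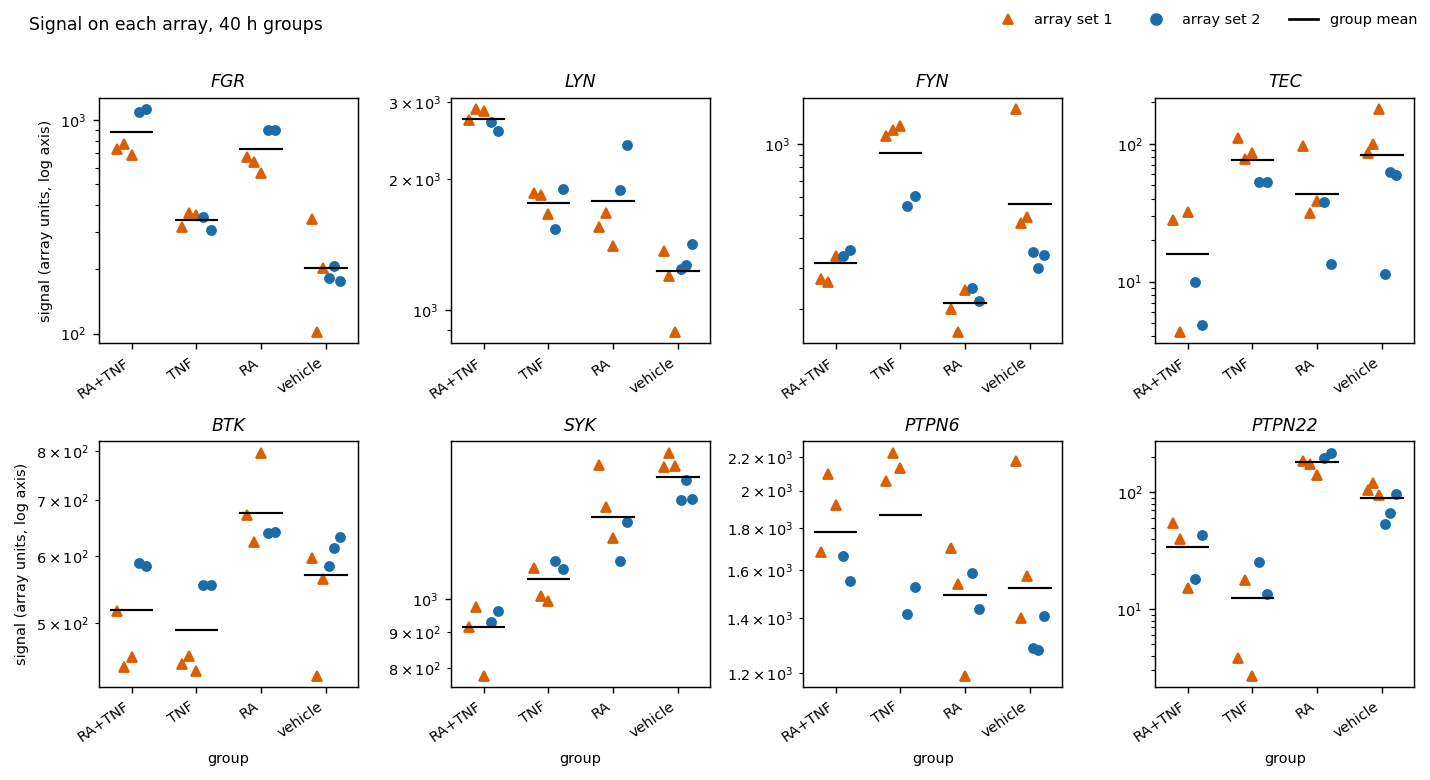
Signal of 1 probe set per gene, that with the highest mean deposited log2 value, on every array of the 40 h groups (array units, log axis). Array set 1 is shown as triangles, set 2 as circles and group means as black bars. FGR and LYN are highest with RA plus TNF, PTPN22 is highest with RA and lowest with TNF, and 1 vehicle well stands high for FYN at 1409.5 units.

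The time course shows how early FGR differed. It read 147 to 207, with a median of 166 units in the 8 vehicle wells, 303 and 342 after 2 h of RA, 931 and 962 after 6 h and 873, 924 and 1037 after 16 h, and the 2 wells of array set 2 at 40 h read 904 and 900.1. All wells with RA lay above all vehicle wells at each time, and the 6 h, 16 h and 40 h wells, between 873 and 1037 units, lay above both 2 h wells. Because of the array medians the median gene shifted by 0.31 after 2 h, 0.38 after 6 h, -0.17 after 16 h and 0.15 after 40 h of RA on the log2 scale. Relative to that shift FGR differed from vehicle by 0.96 ± 0.22, 2.53 ± 0.22, 2.51 ± 0.18 and 2.43 ± 0.22. By the protocols the vehicle arrays are from 16 h and 40 h, so the early times have no vehicle wells of their own age.

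LYN, the SRC-family kinase that both starts ITAM signals and, by phosphorylating ITIM receptors, their inhibition, was highest with the 2 agents together. Of its probe sets 202625_at had the highest mean deposited log2 value and was used for the gene. In array units its mean over all arrays, 1749, was below those of 210754_s_at (1823) and 202626_s_at (1827). Probe set 202625_at read 2736, 2896, 2864, 2699 and 2583 units with RA plus TNF, 1856, 1843, 1665, 1535 and 1899 with TNF, 1557, 1673, 1403, 1889.8 and 2397 with RA, and 891 to 1418, with a median of 1259 with vehicle. The 5 wells with both agents lay above all others in these units, the TNF wells lay above vehicle, and RA overlapped both TNF and vehicle. Relative to the array medians, RA plus TNF overlapped RA, and TNF overlapped vehicle. The log2 difference from vehicle was 1.30 ± 0.17 with RA plus TNF, 0.58 ± 0.17 with TNF and 0.57 ± 0.17 with RA. RA plus TNF exceeded TNF by 0.71 ± 0.18 and RA by 0.73 ± 0.18. The last value was 1.09 ± 0.23 in array set 1 and 0.20 ± 0.22 in set 2, where the 2 RA wells were the brightest of that group, and RA against vehicle was 0.37 without RA replicate 5. The interaction, the RA effect with TNF minus the RA effect without it, was 0.15 ± 0.25.

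The 3 LYN probe sets differed in the same direction in every 40 h comparison, from 1.30 to 1.47 for RA plus TNF against vehicle, 0.53 to 0.58 for TNF and 0.50 to 0.61 for RA. They differed in spread: 202626_s_at read 4045, 4372, 4532, 2356 and 2069 units in the RA plus TNF wells, with the 3 wells of array set 1 above the 2 of set 2, whereas 202625_at spanned 2583 to 2896. LYN in the time course read 982 to 1418, with a median of 1259 units with vehicle, 1491 and 1179 at 2 h, 1993 and 1741 at 6 h and 2061, 2074 and 2483 at 16 h, with 1889.8 and 2397 at 40 h. From 6 h on all wells with RA exceeded all vehicle wells, and at 2 h they overlapped in these units, though not relative to the array medians. Relative to the median gene LYN differed by 0.16 ± 0.20 after 2 h, 0.65 ± 0.20 after 6 h, 0.89 ± 0.17 after 16 h and 0.82 ± 0.20 after 40 h.

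FYN, a broadly expressed SRC-family kinase that also works in T cell receptor signalling, ran the other way from FGR and LYN with RA. Its brightest probe set, 210105_s_at, read 269, 262, 337, 337 and 357 units with RA plus TNF, 1081, 1148, 1189, 545 and 606 with TNF, 200.3, 159.7, 241, 246 and 216 with RA, and 298 to 1409.5, with a median of 406 with vehicle. All RA wells lay below all vehicle wells, and all RA plus TNF wells below all TNF wells, while TNF overlapped vehicle only through vehicle replicate 1 at 1409.5 units. The log2 difference was -0.55 ± 0.26 for RA plus TNF against vehicle, 0.87 ± 0.26 for TNF, -1.19 ± 0.26 for RA and -1.42 ± 0.27 for RA plus TNF against TNF. Adding TNF to RA gave 0.64 ± 0.27, with the groups apart in these units and overlapping relative to the array medians.

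The size of the FYN differences depended on the arrays used. RA against vehicle was -1.86 ± 0.31 in array set 1, which holds the high vehicle well, and -0.34 ± 0.21 in set 2, and it was -0.86 without vehicle replicate 1. RA plus TNF against vehicle was -1.11 ± 0.31 in set 1, 0.14 ± 0.21 in set 2 and -0.22 without that well. TNF against vehicle was more alike, at 0.75 ± 0.31 and 0.89 ± 0.21. The vehicle well that was high for FYN was also the highest of its group for FGR and PTPN6. The 4 FYN probe sets that passed the filter on low values were all higher with TNF, with differences of 0.69 to 1.26, and all lower with RA, with differences of -0.62 to -1.54. The fifth, 1559101_at, did not pass it and ranged from 2.1 to 42 units with RA plus TNF, against 3.7 to 35.5 with vehicle. With RA alone this probe set was higher than vehicle in array set 1, at 37 to 54 units against 3.7 to 18.9. In set 2 it read 2.4 to 15.3 units with RA against 13.2 to 35.5 with vehicle.

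In the time course, where vehicle wells were close together, FYN read 298 to 356, with a median of 337 units with vehicle, 266 and 326 after 2 h of RA, 171 and 174 after 6 h and 273, 209 and 249 after 16 h, with 246 and 216 at 40 h. At 2 h the wells overlapped with vehicle, and from 6 h all RA wells lay below all vehicle wells. The lowest readings were those at 6 h. Probe set 212486_s_at did not follow, with 0.83 ± 0.50 at 2 h and 0.50 ± 0.50 at 40 h before the median shift is taken off. Relative to the median gene the differences were -0.15 ± 0.21, -0.92 ± 0.21, -0.44 ± 0.18 and -0.52 ± 0.21 at the 4 times.

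**Figure D2:**
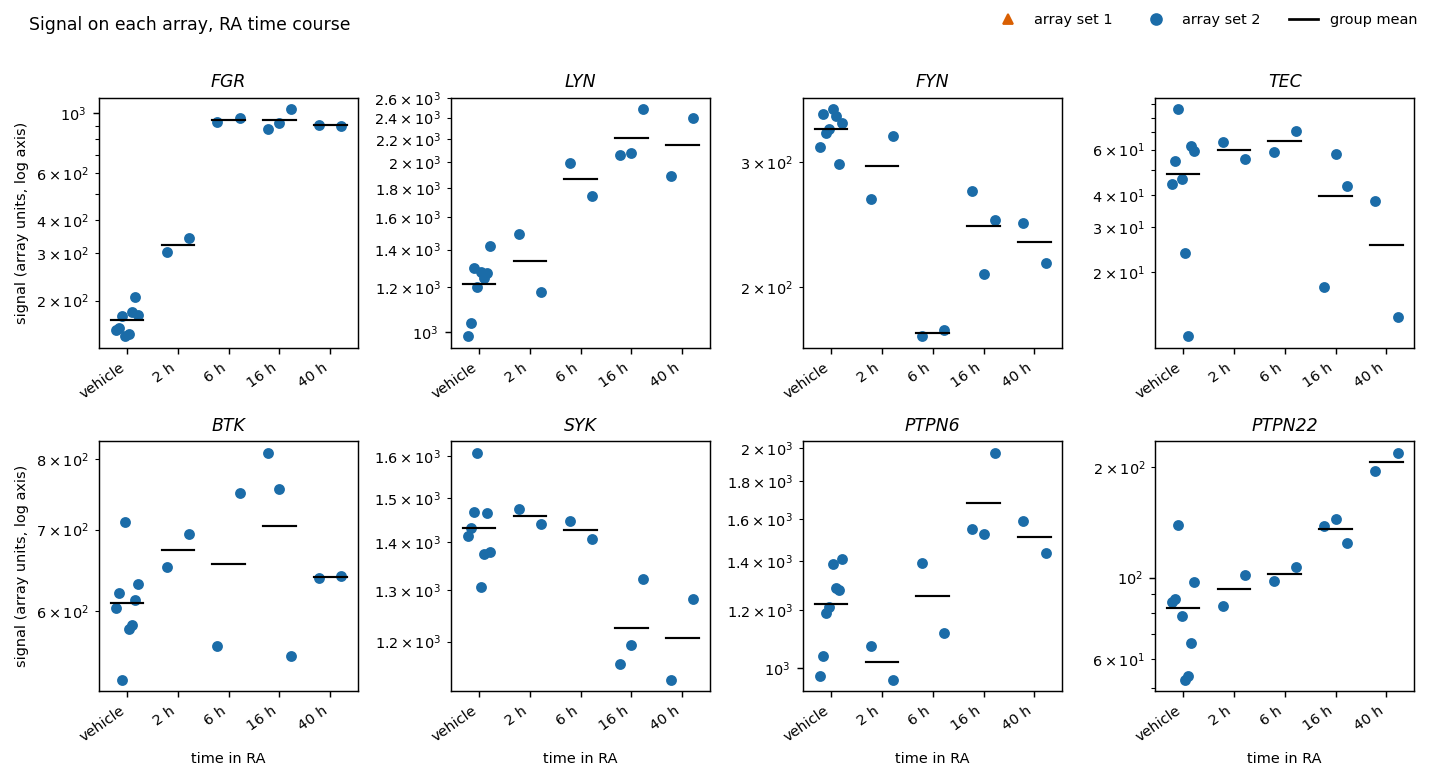
Signal of the same probe sets in the RA time course (array units, log axis, array set 2), with vehicle (8 wells), then 2 h, 6 h, 16 h and 40 h of RA, points for wells and black bars for means. FGR is above vehicle from 2 h and LYN from 6 h, FYN is below vehicle from 6 h, and PTPN22 is above it at 40 h.

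SYK, the kinase that docks on phosphorylated ITAMs, was lower with TNF. Probe set 226068_at read 915, 975, 781, 929.9 and 963 units with RA plus TNF, 1106, 1009, 995, 1128 and 1101 with TNF, 1537, 1345, 1218, 1131 and 1282 with RA, and 1376 to 1601, with a median of 1496 with vehicle. In these units the groups with TNF lay wholly below both groups without it, and RA plus TNF wholly below TNF. Relative to the array medians, the scale of the model, the same groups overlapped, and the log2 difference from vehicle was -0.59 ± 0.15 with RA plus TNF, -0.43 ± 0.15 with TNF and -0.16 ± 0.15 with RA. On the trimmed-mean scale the same 3 values were -0.70 ± 0.09, -0.47 ± 0.09 and -0.19 ± 0.09, with smaller errors. The other SYK probe sets did not all follow, since 209269_s_at differed by -0.10 ± 0.16 with RA plus TNF and -0.26 ± 0.16 with TNF, 207540_s_at by -0.35 ± 0.18 and -0.11 ± 0.18, and 244023_at by -0.95 ± 0.37 and 0.31 ± 0.37. Relative to the median gene SYK differed from vehicle by 0.05 ± 0.20 after 2 h of RA, 0.03 ± 0.20 after 6 h, -0.20 ± 0.17 after 16 h and -0.24 ± 0.20 after 40 h.

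BTK, the TEC-family kinase whose loss blocks B cell development in humans and which also acts downstream of myeloid Fc receptors, had small differences at 40 h. It read 517, 444, 455, 589.8 and 584 units with RA plus TNF, 446, 456, 438, 554 and 554 with TNF, 671, 625, 797, 639 and 641 with RA, and 433 to 632, with a median of 591 with vehicle. The groups overlapped with vehicle in every case, and RA plus TNF lay below RA in these units but not relative to the array medians. The log2 difference was -0.01 ± 0.15 for RA plus TNF against vehicle, -0.15 ± 0.15 for TNF, 0.29 ± 0.15 for RA and -0.30 ± 0.16 for RA plus TNF against RA. Over the time course BTK read 527 to 711 units in the 8 vehicle wells and 551 to 809 in the wells given RA for 2, 6 or 16 h.

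TEC, the founding member of the BTK family, had low signals that varied widely between wells. Probe set 206301_at read 27.9, 4.3, 31.7, 10 and 4.8 units with RA plus TNF, 110, 76.9, 86.1, 53.1 and 53 with TNF, 96.4, 31.5, 38.2, 37.8 and 13.4 with RA, and 11.3 to 178, with a median of 74.1 with vehicle. The 5 RA plus TNF wells lay below their own array medians and below every TNF well, and overlapped with RA and with vehicle, whose lowest well, replicate 4, read 11.3 units. The log2 difference was -2.50 ± 0.56 for RA plus TNF against vehicle, -2.63 ± 0.58 against TNF and -1.58 ± 0.58 against RA, while RA alone differed from vehicle by -0.91 ± 0.56 and TNF alone by 0.13 ± 0.56. The interaction was -1.71 ± 0.81. TEC in the time course read 11.3 to 86.1, with a median of 50.2 units with vehicle, 64.5 and 55.1 at 2 h, 59 and 71 at 6 h and 17.6, 57.9 and 43.2 at 16 h, with 37.8 and 13.4 at 40 h, and every group overlapped with vehicle. Sizes are uncertain where signals lie this low, so no fold is given. The difference of RA plus TNF from vehicle was -1.60 ± 0.33 when 16 units were added to each signal, and leaving out single wells gave -2.90 to -2.02.

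PTPN6, the phosphatase SHP-1 that ITIM receptors recruit, overlapped with vehicle in every 40 h group. It read 1682, 2094, 1920.1, 1666 and 1552 units with RA plus TNF, 2054, 2226, 2132, 1414 and 1526 with TNF, 1702, 1539, 1190.2, 1588 and 1436 with RA, and 1278 to 2175, with a median of 1404 with vehicle. In the groups with TNF the 3 wells of array set 1 all lay above the 2 of set 2. The log2 difference was 0.33 ± 0.16 for RA plus TNF against vehicle, 0.32 ± 0.16 for TNF and -0.01 ± 0.16 for RA. PTPN6 in the time course read 978 to 1409, with a median of 1246 units with vehicle, 1074 and 965 after 2 h of RA, 1392 and 1117 after 6 h and 1549.9, 1526 and 1969 after 16 h, with 1588 and 1436 at 40 h. The 2 wells at 40 h were above all 8 vehicle wells on both scales. The 16 h wells were so in these units and overlapped relative to the array medians, and the 6 h wells overlapped in these units and were above vehicle relative to the array medians. Relative to the median gene the difference was 0.48 ± 0.16 at 16 h and 0.32 ± 0.19 at 40 h.

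PTPN22, the phosphatase that dampens SRC and SYK family kinases, had opposite differences with the 2 agents. Its brightest probe set, 206060_s_at, read 54.6, 39.7, 15.2, 18.1 and 43 units with RA plus TNF, 3.8, 17.6, 2.7, 25.2 and 13.4 with TNF, 185, 174, 142, 196 and 219 with RA, and 53.7 to 119.7, with a median of 96.2 with vehicle. All RA wells exceeded all vehicle wells in these units but not relative to the array medians, and all TNF wells lay below every well without TNF and below their own array medians. The RA plus TNF wells lay below all RA wells, and the highest of them, at 54.6 units, lay just above the lowest vehicle well at 53.7. The log2 difference was -1.37 ± 0.50 for RA plus TNF against vehicle, -3.18 ± 0.50 for TNF and 1.12 ± 0.50 for RA, and RA plus TNF differed from TNF by 1.81 ± 0.52 and from RA by -2.50 ± 0.52.

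The sizes for PTPN22 rest on signals near the floor in the wells with TNF. TNF against vehicle was -4.21 ± 0.72 in array set 1 and -1.86 ± 0.51 in set 2, and it was -1.91 ± 0.27 when 16 units were added to each signal before taking logs. RA against vehicle was 0.57 ± 0.72 in set 1 and 1.72 ± 0.51 in set 2, and RA plus TNF against TNF 2.62 ± 0.72 and 0.58 ± 0.56. The second probe set above the filter, 236539_at, read 35, 8.5, 6.8, 19 and 52.4 units with RA plus TNF, 11.3, 1.5, 7.8, 29.5 and 2.1 with TNF, 92.4, 164, 212, 184 and 171 with RA and 48.7 to 95.5 with vehicle. It gave -3.45 ± 0.63 for TNF and 1.24 ± 0.63 for RA, the directions of the first. The other 2, 208010_s_at and 208011_at, did not pass the filter at 40 h and read 2.9 to 37.7 and 1.1 to 14.5 units with vehicle. PTPN22 in the time course read 52.6 to 139, with a median of 82.2 units with vehicle, 83.8 and 102 at 2 h, 97.7 and 107 at 6 h and 138, 144 and 124 at 16 h, with 196 and 219 at 40 h. This probe set was above all vehicle wells at 40 h only, while 236539_at was so from 6 h. Relative to the median gene 206060_s_at differed by 0.25 ± 0.33, 0.40 ± 0.33, 0.80 ± 0.28 and 1.40 ± 0.33.

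**Figure D3:**
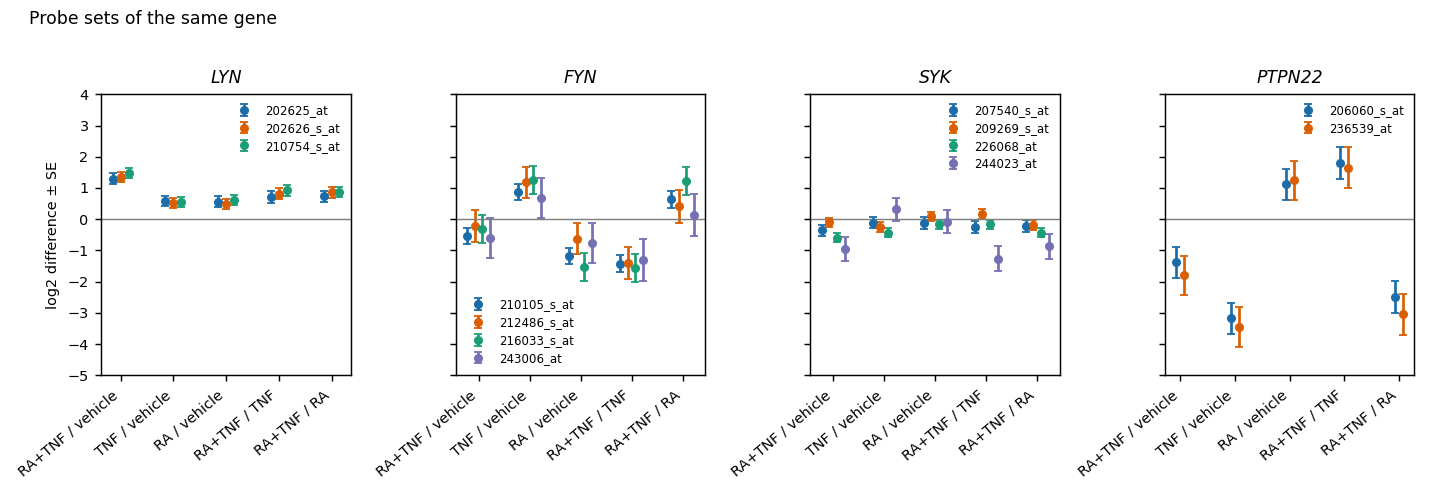
Log2 difference ± SE in the 5 comparisons of the 40 h groups for each probe set above the filter of the 4 genes with more than 1 such probe set. The LYN probe sets lie together, all 4 FYN probe sets are above 0 with TNF and below 0 with RA, both PTPN22 probe sets are far below 0 with TNF, and the SYK probe sets differ among themselves.

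**Figure D4:**
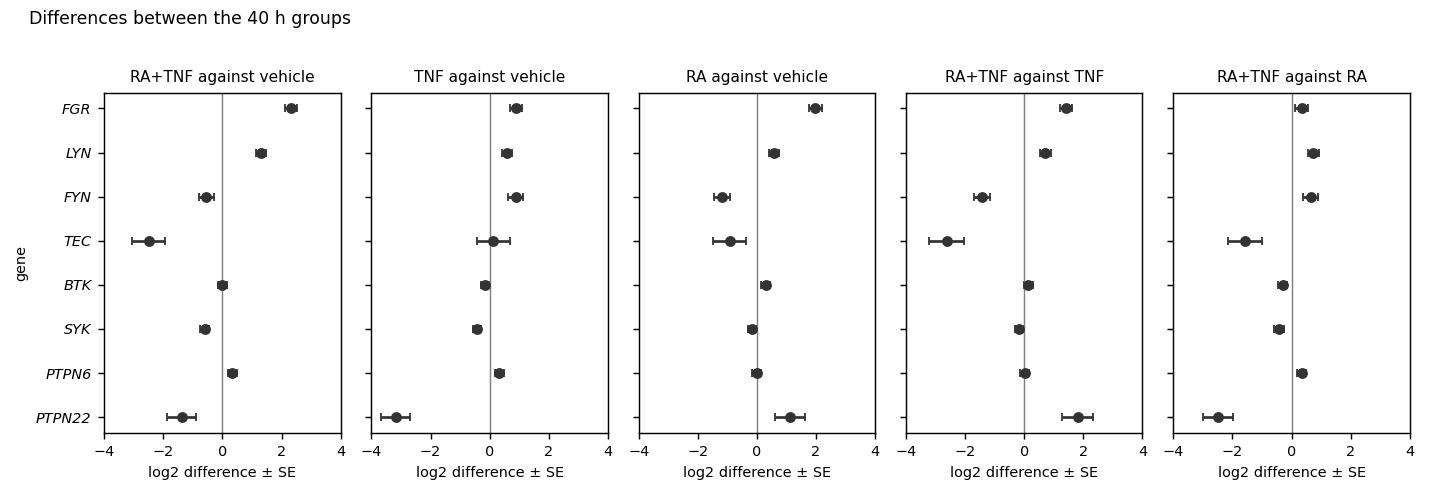
Log2 difference ± SE (points and bars) of each of the 8 genes in the 5 comparisons of the 40 h groups. FGR stands highest with RA at 1.98, PTPN22 lowest with TNF at -3.18, and the values of BTK lie between -0.30 and 0.29.

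All 8 genes passed the filter on low values with the probe set of highest mean deposited log2 value. By the threshold used for all genes, an adjusted p under 0.05 in limma, RA plus TNF against vehicle called FGR and LYN higher and TEC, SYK and PTPN22 lower, 5 of 8, where 19.1% of 12393 genes were called. For TNF against vehicle 4 of 8 were called, FGR, LYN and FYN higher and PTPN22 lower (11.3% of all genes), and for RA 2 of 8, FGR higher and FYN lower (4.14%). RA plus TNF against TNF called 5 of 8, FGR, LYN and PTPN22 higher and FYN and TEC lower (7.29%), and against RA 2 of 8, LYN higher and PTPN22 lower (12.2%). The interaction called none of them, against 0.428% of all genes. In the time course FGR was called at 2 h (0.864%), FGR and LYN at 6 h (8.38%), FGR, LYN and, lower, FYN at 16 h (7.02%), and FGR, LYN and PTPN22 at 40 h (5.13%). Nothing is read from these counts, since the choice of the genes used the same contrasts. The RA, TNF and combined comparisons share their vehicle wells. Relative to the array medians, the groups did not overlap for 2 of 8 genes with RA plus TNF against vehicle, both higher, where 8.71% of all genes did not, 5.8% higher and 2.91% lower. The count was 1 for TNF, lower (4.62% of all genes did not, 3% higher and 1.61% lower), and 2 for RA, 1 in each direction (1.87% of all genes did not, 1.36% higher and 0.508% lower). It was 4 for RA plus TNF against TNF, 2 in each direction (5.5% of all genes did not, 3.66% higher and 1.83% lower), and 1 against RA, lower (5.75% of all genes did not, 3.58% higher and 2.16% lower). In the time course it was 2 at 2 h, both higher (19.3% of all genes did not, 18.8% higher and 0.472% lower), and 4 at 6 h, 3 of them higher (18.3% of all genes did not, 17.8% higher and 0.52% lower). At 16 h it was 3, 2 of them higher (8.1% of all genes did not, 3.06% higher and 5.05% lower), and at 40 h 5, 4 of them higher (12.3% of all genes did not, 10% higher and 2.26% lower). Leaving out single wells ended several of these calls: PTPN22 with RA plus TNF against vehicle held in 3 of 11 such fits and against TNF in 5 of 10, FYN with TNF in 5 of 11 and at 16 h in 6 of 11, and LYN with TNF in 9 of 11. It also ended FGR at 2 h without RA 2 h replicate 2, LYN at 6 h without RA 6 h replicate 2 and at 16 h without RA 16 h replicate 3, and LYN and PTPN22 at 40 h without RA 40 h replicate 5.

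The genes whose pattern was most like each of the 8 were sought over the 21 arrays at 40 h after removing the mean of each array set, by Pearson's r. Arrays share their centring and treatment, so the coefficients only describe likeness. FGR was most like FMNL2 (r = 0.958) and ALOX5AP (0.955), LYN like DEGS1 (0.951) and ALG5 (0.951), and FYN like SLC38A2 (0.949) and EIF4EBP1 (0.945). SYK was most like TST (0.934) and SPN (0.919), PTPN22 like SORL1 (0.905) and PBXIP1 (0.905), and PTPN6 like CEBPB (0.887) and HAX1 (0.883). BTK was most like KIAA0930 (0.876) and LRBA (0.869), and TEC had the lowest best match in DLL1 (0.819), followed by NMNAT3 (0.781). Among the 8 themselves FGR and LYN had r = 0.78, FYN and PTPN22 -0.63 and FGR and TEC -0.60.

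The rest of the pathway was followed in 6 lists of 100 genes, of which 91 had a probe set of their own and 80 passed the filter at 40 h. These genes were tested, with adjusted p-values from limma over all genes. The lists too were drawn up with earlier results of these data known, and the p-values do not allow for that choice. Their counts beside the shares of all genes are therefore a description and no evidence about the pathway. RA plus TNF against vehicle called 22 of 80 higher and 7 lower, with a median log2 difference of 0.21, against 11.7% of all genes higher, 7.42% lower and a median of 0.05. TNF called 6 higher and 9 lower (6.69% and 4.62% of all genes), with a median of -0.06 against -0.01. RA called 10 higher and 1 lower (2.77% and 1.37%), with a median of 0.08 against 0.00. RA plus TNF against TNF called 14 higher and 3 lower (4.6% and 2.69%), with a median of 0.17 against 0.04, and against RA 9 higher and 8 lower (7.63% and 4.55%), with 0.02 against 0.03. No test of the lists as sets was made. The split into directions depended on the scaling: with quantile normalization RA plus TNF against vehicle called 22 higher and 15 lower, TNF 9 and 23, and RA 14 and 5.

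Other kinases of the SRC family mostly lay too low to test. SRC, YES1 and PTK6 passed the filter. SRC itself rose with RA plus TNF, at 109, 87.2, 189.8, 100.3 and 97.2 units against 35 to 72.6, with a median of 50.5 with vehicle (log2 1.22 ± 0.29, adjusted p = 0.00173). YES1 fell, at 266, 205, 252, 269.7 and 408 units against 376 to 1128, with a median of 531 (-0.94 ± 0.23, adjusted p = 0.00289). In array set 2 alone neither passed the threshold (adjusted p = 0.0849 for SRC and 0.140 for YES1). LCK, BLK, FRK and SRMS did not pass the filter, nor did ZAP70 and TXK.

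Among genes that restrain SRC-family signalling, SLA, the SRC-like adaptor that binds CBL and promotes receptor breakdown, read 1552, 1673, 1677, 2485 and 2266 units with RA plus TNF, 174, 135, 146, 262 and 194 with TNF, 819, 715, 685, 1740.2 and 1645 with RA, and 249.5 to 357, with a median of 333 with vehicle. All wells with RA lay above all wells without it, and all TNF wells but 1 below all vehicle wells. SLA rose by 2.75 ± 0.19 with RA plus TNF (adjusted p = 5.95e-14), fell with TNF (-0.73 ± 0.19, adjusted p = 0.00793) and rose by 1.79 ± 0.19 with RA (adjusted p = 1.11e-08). RA plus TNF exceeded TNF by 3.48 ± 0.20 (adjusted p = 2.04e-15), and the difference between the 2 RA effects was 1.69 ± 0.27 (adjusted p = 0.000929). SLA was the only 1 of the 80 called for that interaction, and the call was lost when array set was left out of the model. In array set 1 the interaction was 2.26 (adjusted p = 0.00148) and in set 2 it was 0.94 (adjusted p = 0.378), where the fall with TNF did not pass either (adjusted p = 0.104). SLA was already higher after 2 h of RA, at 851 and 838 units (1.66 ± 0.22, adjusted p = 1.89e-05, and 1.35 ± 0.22 relative to the median gene).

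UBASH3B, a tyrosine phosphatase that dephosphorylates SYK and ZAP70, changed in a different order. It read 830, 862, 858, 995 and 1176 units with RA plus TNF, 444, 497, 470.5, 462 and 417 with TNF, 2099.7, 2235, 2821, 2412 and 2447 with RA, and 642 to 795, with a median of 693 with vehicle, and none of the 4 groups overlapped. It rose by 1.80 ± 0.14 with RA (adjusted p = 1.16e-11) and fell with TNF (-0.56 ± 0.14, adjusted p = 0.00606), though the fall with TNF passed in neither array set alone (adjusted p = 0.113 in set 1 and 0.0968 in set 2). RA plus TNF differed from RA by -1.27 ± 0.15 (adjusted p = 4.49e-08). PAG1, the membrane adaptor that brings the inhibitory kinase CSK to SRC-family kinases, rose with TNF, at 1237, 1136, 1204, 1070.4 and 1047 units against 406 to 752, with a median of 458 with vehicle (1.29 ± 0.19, adjusted p = 4.54e-06). SH3BP5, an inhibitor of BTK, fell with RA plus TNF (-1.04 ± 0.19, adjusted p = 7.6e-05) and with RA (-1.04 ± 0.19, adjusted p = 0.000308), and in array set 2 alone neither passed (adjusted p = 0.0576 and 0.100). Of the 22 tested members of this list RA plus TNF called 6 higher and 1 lower, TNF 2 and 2, and RA 2 and 1, where the shares of all genes were 11.7% and 7.42%, 6.69% and 4.62%, and 2.77% and 1.37% in the same order. The TNF counts are close to those shares.

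Among 11 tested ITAM receptors and adaptors RA plus TNF called 4 higher and 2 lower, TNF 2 and 3, and RA 3 and none, where the shares of all genes were 11.7% and 7.42%, 6.69% and 4.62%, and 2.77% and 1.37%. FCER1G, the ITAM adaptor of Fc receptors, read 11402, 11355, 12348, 11698 and 9702 units with RA plus TNF, 6239, 6603, 7266, 6841 and 7465 with TNF, 7929, 7166, 6913, 11747 and 10016 with RA, and 3606 to 5064, with a median of 3934 with vehicle, so all treated wells exceeded all vehicle wells. It rose by 1.59 ± 0.17 with RA plus TNF (adjusted p = 3.22e-09), 0.81 ± 0.17 with TNF (adjusted p = 0.000859) and 1.12 ± 0.17 with RA (adjusted p = 1.69e-05). The activating receptors LILRA2 and FCGR2A fell with TNF. LILRA2 read 488, 447, 499, 549.9 and 588 units with TNF against 862 to 1440.1, with a median of 991 with vehicle (-0.98 ± 0.17, adjusted p = 9.78e-05), and FCGR2A 221, 188, 255, 297 and 229 against 563 to 777, with a median of 601 (-1.37 ± 0.19, adjusted p = 1.14e-06). Both also fell with RA plus TNF, with differences of -1.66 ± 0.17 (adjusted p = 1.79e-09) and -1.51 ± 0.19 (adjusted p = 6.94e-08). TREM2, a receptor that signals through TYROBP, rose with RA (0.83 ± 0.16, adjusted p = 0.000694) and fell with TNF (-0.74 ± 0.16, adjusted p = 0.0014), though in array set 1 alone neither passed (adjusted p = 0.163 and 0.127).

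**Figure D5:**
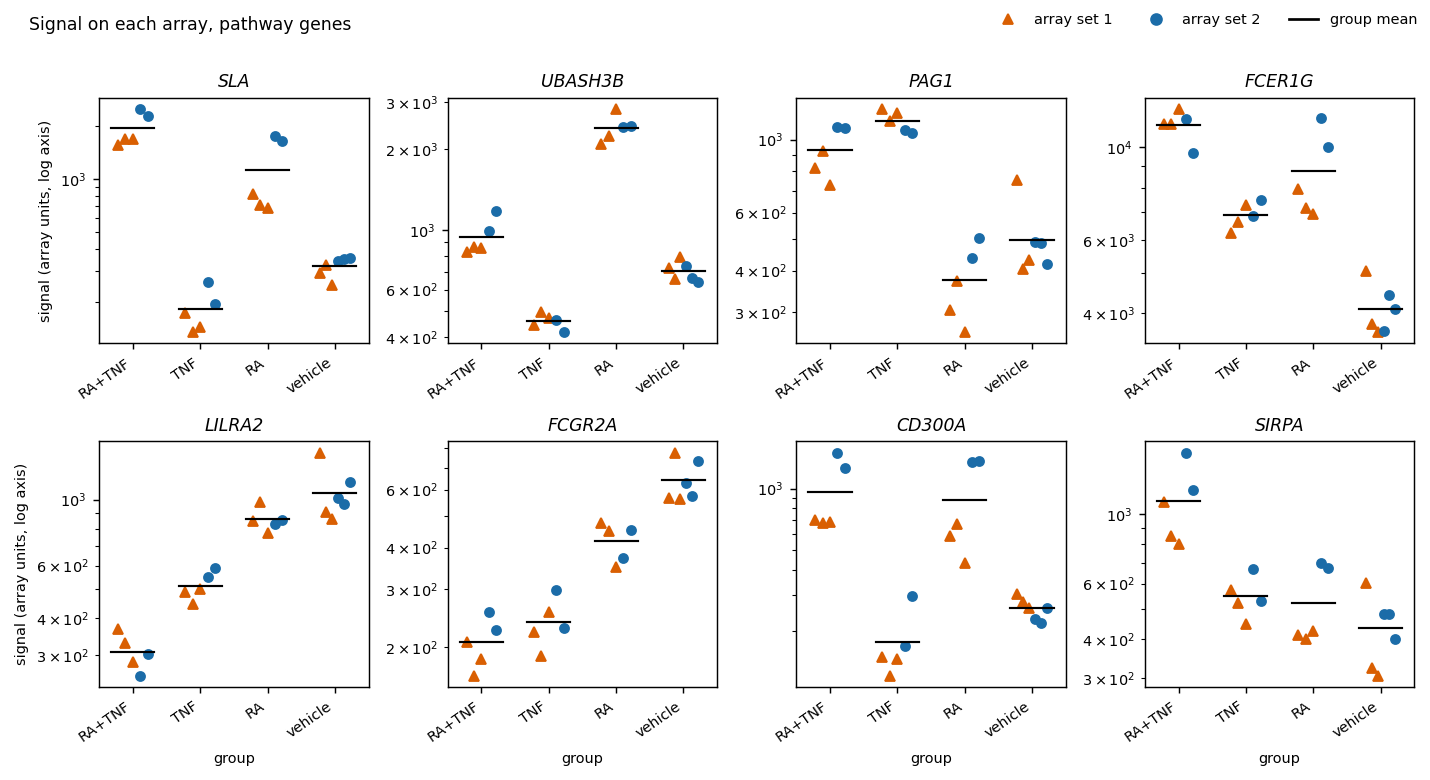
Signal on every array of the 40 h groups (array units, log axis) for 8 pathway genes, with array set 1 as triangles, set 2 as circles and black bars for group means. SLA lies between 1552 and 2485 units with RA plus TNF and between 135 and 262 with TNF, UBASH3B is highest with RA, FCER1G is above vehicle in all treated groups, and LILRA2 and FCGR2A are low in both groups with TNF.

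Among 12 tested ITIM receptors RA plus TNF called 3 higher and 2 lower, TNF 1 and 2, and RA 2 and none, where the shares of all genes were 11.7% and 7.42%, 6.69% and 4.62%, and 2.77% and 1.37%. The single higher call with TNF is close to its share. CD300A, an inhibitory receptor of myeloid cells, read 700.4, 674, 685, 1502 and 1265 units with RA plus TNF, 149, 120.4, 145, 168 and 295 with TNF, 582, 666, 430.2, 1357 and 1369 with RA, and 219 to 303, with a median of 259 with vehicle. It rose with RA plus TNF (2.00 ± 0.23, adjusted p = 1.31e-08) and with RA (1.72 ± 0.23, adjusted p = 1.24e-06), with the wells of array set 2 highest in both groups. The RA difference was 0.91 in array set 1 alone, where it did not pass (adjusted p = 0.0679), and 2.70 in set 2. SIRPA, the receptor for CD47, rose with RA plus TNF, at 1091, 851, 803, 1565 and 1187 units against 306 to 604, with a median of 440.1 with vehicle (1.50 ± 0.19, adjusted p = 1.77e-07), while neither agent alone was called for it in this fit. SIRPA in the time course was called at 6 h (0.63 ± 0.19, adjusted p = 0.0375) and at 40 h (0.81 ± 0.19, adjusted p = 0.00579). Taken relative to the median gene, which has no test, these were 0.25 ± 0.19 and 0.66 ± 0.19. The 6 h call held in 5 of 10 fits without a single well, and the 40 h call was lost without RA 40 h replicate 5. PECAM1 fell with RA plus TNF (-1.01 ± 0.18, adjusted p = 3.58e-05).

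Of 32 tested adaptors and effectors RA plus TNF called 8 higher and 1 lower, TNF 1 and 2, and RA 3 and none, where the shares of all genes were 11.7% and 7.42%, 6.69% and 4.62%, and 2.77% and 1.37%. With TNF the higher count does not stand above its share, and the lower count is close to its share. PRAM1, an adaptor of myeloid cells related to FYB1, rose with RA, at 249.9, 210.4, 289, 371 and 371 units against 7.1 to 103, with a median of 42.9 with vehicle (2.98 ± 0.51, adjusted p = 0.00011). PRKCB, the protein kinase C beta downstream of phospholipase C, rose by 0.75 ± 0.16 (adjusted p = 0.00194) and PIK3CG, a catalytic subunit of phosphoinositide 3-kinase, by 0.69 ± 0.16 (adjusted p = 0.00608). In array set 1 alone neither passed, at 0.53 (adjusted p = 0.383) for PRKCB and 0.43 (adjusted p = 0.566) for PIK3CG, against 1.06 and 1.05 in set 2, where both did. PLCG2, the phospholipase C that BTK activates, fell with TNF (-0.56 ± 0.15, adjusted p = 0.0109), though it passed in neither array set alone (adjusted p = 0.0551 in set 1 and 0.262 in set 2). BANK1, a scaffold for LYN in B cells, fell with RA plus TNF, at 63.8, 54.4, 9.5, 83 and 88.2 units against 148 to 400, with a median of 294 with vehicle (-2.26 ± 0.37, adjusted p = 1.39e-05).

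In the time course 77 pathway genes were tested. RA called 3 of them higher and none lower at 2 h (0.84% and 0.024% of 12503 genes). It called 18 higher and none lower at 6 h (8.21% and 0.176%), 9 higher and 6 lower at 16 h (2.36% and 4.66%), and 15 higher and none lower at 40 h (4.45% and 0.672%). With quantile normalization the counts were 1 and 0 after 2 h, 8 and 3 after 6 h, 18 and 7 after 16 h, and 15 and 4 after 40 h. The 3 genes called at 2 h were SLA, CD300LB and CD300A. The tests are of the difference before the median shift is taken off, and the values relative to the median gene have no test of their own. CD300A rose by 0.98 ± 0.21 at 2 h (adjusted p = 0.00991), 2.38 ± 0.21 at 6 h (adjusted p = 1.24e-09), 2.16 ± 0.18 at 16 h (adjusted p = 3.84e-10) and 2.81 ± 0.21 at 40 h (adjusted p = 3.17e-11). Less the median shift its differences were 0.67 ± 0.21, 2.00 ± 0.21, 2.33 ± 0.18 and 2.66 ± 0.21 in the same order. UBASH3B was not called at 2 h and rose by 0.76 ± 0.19 at 6 h (adjusted p = 0.0117), 1.33 ± 0.16 at 16 h (adjusted p = 9.08e-07) and 2.04 ± 0.19 at 40 h (adjusted p = 3.53e-09). Less that shift these were 0.38 ± 0.19, 1.49 ± 0.16 and 1.89 ± 0.19, the first of them under 2 standard errors. The 2 h calls of CD300A and CD300LB were lost without either 2 h well, and that of UBASH3B at 6 h without RA 6 h replicate 2. With those arrays left out a group is a single well, assumed to vary like the others.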

How the data were processed

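RNA from 33 wells was hybridised to HG-U133 Plus 2 arrays (Affymetrix). The deposited values are log2 signals relative to each array's median, as judged from the values, and GCOS is the software named per the submitters' processing notes, with no version given. The data behind each log2 value were scaled by the authors before they were deposited, by steps not given in the sources used here. Linear signals were recovered from them. Of 54675 probe sets, 62 are controls, 41091 have 1 gene symbol, 1801 several and 11721 none. Each of 19775 genes was represented by its probe set with the highest mean deposited log2 value over all arrays. The platform annotation was updated through RefSeq, where 41037 matched.

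Genes whose mean linear value was below the median of all probe sets were left out, and 12393 (40 h groups, 21 arrays, array set as covariate) and 12503 (time course, 17 arrays) were fitted with limma 3.58.1 in R 4.3.3, with Benjamini-Hochberg adjustment and a threshold of 0.05. The 2 vehicle ages, taken from the protocols against titles that say 0 h, were pooled in the time course. Wells are separate per the labels, and the p-values set each difference between groups against the spread between wells. Simulated data were independent normal values around the mean of each gene. They held no difference between array sets, no shift of whole arrays and no correlation between genes. The real arrays have such differences and shifts, so the false calls below cannot speak for the real fits. On simulated data for RA plus TNF against vehicle (12393 genes) the fit recovered 66% of 2-fold and 83% of 4-fold changes, with 11 false among 160 calls. In the time course (12503 genes) it recovered 50% and 84% for 16 h of RA, with 11 false among 145 calls, and 51% and 79% for 2 h, with 15 false among 145 calls.

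The 8 genes and all lists were chosen with earlier results of these data known. Named genes are the 8, up to 4 called genes with the smallest adjusted p per list and comparison, and the 2 genes most like each of the 8. Some pathway genes are not reported here. Alternatives covered normalization, centring, a pseudocount of 16 units, filters, probe sets, array sets, array weights, the vehicle used, a replicate block and leaving out each well. The number of arrays limits the precision.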

Additional observations from a re-analysis of the deposited data

Results flagged for a closer look

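In groups of 4 to 10 wells the gap of the highest or lowest well to its neighbour was set against the range of the group, for the 8 genes. Of 40 groups tested 3 had a gap beyond Dixon's 95% limit, and chance gives about 1 in 20. All were in the 6 vehicle wells at 40 h. LYN was low in vehicle replicate 3, at 891 units against 1197 in the next well, a gap of 0.723 of the range. FYN was high in vehicle replicate 1, at 1409.5 units against 465 in the well next to it on the deposited log2 scale, a gap of 0.773. TEC was low in vehicle replicate 4, at 11.3 units against 59.5, a gap of 0.717. Gaps and ranges were taken on that scale.

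SLA differed in its response to RA with and without TNF, by 1.69 on the log2 scale (limma adjusted p = 0.000929). This difference was not called in array set 2 alone, nor when array set was left out of the model. RA plus TNF against TNF was 3.48, and RA against vehicle was 1.79.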

How the results depend on the processing

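Of 1768 recomputed log2 differences of the 8 genes 1688 moved by less than 1 SD between wells, 80 moved by more and 0 changed sign where called. Leaving out the low-value filter, fitting all probe sets together or dropping the variance trend cannot move these differences. Each of those settings adds 80 unmoved values to the total, so it overstates stability. Array set 2 alone moved 14 of 48, the added 16 units moved 16 of 80, and leaving array set out of the model moved 0 of 48. Of 2460 recomputed values of named pathway genes 260 lost their call and 0 reversed. Replicate numbers shared by groups were not taken to pair the wells in the main fits. For a check, wells were matched by replicate number, 1 to 5, and vehicle replicate 6 was left out. Its record number runs on with those of replicate 5 of the other 40 h groups. Over 30 pairs the correlations of deviations from the means of group and array set ran from -0.098 to 0.079. Deviations from group means alone, which keep the difference between array sets, gave 0.0029 to 0.217. With so few wells per mean these values cannot settle whether wells were paired. The causes of the shifts below were not tested. The number of genes called at an adjusted p under 0.05 in limma was 2364 for RA plus TNF against vehicle, 1401 for TNF against vehicle, 513 for RA against vehicle, 903 for RA plus TNF against TNF, 1510 for RA plus TNF against RA, 53 for the interaction, 108 for 2 h of RA, 1048 for 6 h of RA, 878 for 16 h of RA and 641 for 40 h of RA in the course. Leaving out each well in turn gave 2024 to 2491 for RA plus TNF against vehicle, 1159 to 1474 for TNF against vehicle, 394 to 540 for RA against vehicle, 711 to 905 for RA plus TNF against TNF, 1201 to 1654 for RA plus TNF against RA, 28 to 79 for the interaction, 36 to 164 for 2 h of RA, 146 to 1920 for 6 h of RA, 446 to 1671 for 16 h of RA and 261 to 728 for 40 h of RA in the course. Among the pathway genes the same ranges were 24 to 32 for RA plus TNF against vehicle, 11 to 17 for TNF against vehicle, 10 to 13 for RA against vehicle, 13 to 18 for RA plus TNF against TNF, 12 to 18 for RA plus TNF against RA, 1 to 1 for the interaction, 1 to 4 for 2 h of RA, 5 to 20 for 6 h of RA, 11 to 17 for 16 h of RA and 8 to 17 for 40 h of RA in the course. With quantile normalization the count of genes was 2546 for TNF against vehicle, 1057 for RA against vehicle, 1577 for RA plus TNF against TNF, 2362 for RA plus TNF against RA, 175 for the interaction, 474 for 6 h of RA, 1546 for 16 h of RA and 1317 for 40 h of RA in the course. For pathway lists the count of pathway genes was 32 for TNF against vehicle, 19 for RA against vehicle, 27 for RA plus TNF against TNF, 30 for RA plus TNF against RA, 2 for the interaction, 1 for 2 h of RA, 11 for 6 h of RA and 25 for 16 h of RA. On signals not centred on the median the count of genes was 2487 for TNF against vehicle, 991 for RA against vehicle, 1547 for RA plus TNF against TNF, 2362 for RA plus TNF against RA, 159 for the interaction, 486 for 6 h of RA, 1450 for 16 h of RA and 1240 for 40 h of RA in the course. In the lists the count of pathway genes was 31 for TNF against vehicle, 18 for RA against vehicle, 27 for RA plus TNF against TNF, 29 for RA plus TNF against RA, 2 for the interaction, 1 for 2 h of RA, 10 for 6 h of RA and 23 for 16 h of RA. With 16 units added to each signal the count of genes was 2553 for TNF against vehicle, 1041 for RA against vehicle, 1615 for RA plus TNF against TNF, 2461 for RA plus TNF against RA, 187 for the interaction, 495 for 6 h of RA, 1490 for 16 h of RA and 1271 for 40 h of RA in the course. Over the pathway the count of pathway genes was 32 for TNF against vehicle, 19 for RA against vehicle, 27 for RA plus TNF against TNF, 30 for RA plus TNF against RA, 2 for the interaction, 10 for 6 h of RA and 24 for 16 h of RA. In array set 1 alone the count of genes was 1348 for RA plus TNF against vehicle, 645 for TNF against vehicle and 249 for RA against vehicle. For pathway lists the count of pathway genes was 14 for RA plus TNF against vehicle, 8 for TNF against vehicle, 6 for RA against vehicle and 11 for RA plus TNF against RA. In array set 2 alone the count of genes was 881 for TNF against vehicle, 780 for RA plus TNF against RA and 16 for the interaction. In the lists the count of pathway genes was 0 for the interaction. Without array set in the model the count of genes was 1286 for RA plus TNF against vehicle, 648 for TNF against vehicle, 217 for RA against vehicle, 397 for RA plus TNF against TNF, 792 for RA plus TNF against RA and 7 for the interaction. Over the pathway the count of pathway genes was 6 for TNF against vehicle, 7 for RA against vehicle, 9 for RA plus TNF against TNF, 8 for RA plus TNF against RA and 0 for the interaction. With array quality weights the count of genes was 82 for the interaction, 1688 for 2 h of RA, 411 for 6 h of RA and 2062 for 16 h of RA. For pathway lists the count of pathway genes was 2 for the interaction, 13 for 2 h of RA and 9 for 6 h of RA. Without a trend of variance on level the count of genes was 11 for the interaction, 69 for 2 h of RA and 554 for 6 h of RA. In the lists the count of pathway genes was 11 for 6 h of RA. Against the 16 h vehicle wells alone the count of genes was 531 for 6 h of RA and 552 for 16 h of RA. Over the pathway the count of pathway genes was 11 for 6 h of RA. Against the 40 h vehicle wells alone the count of genes was 341 for 2 h of RA. For pathway lists the count of pathway genes was 5 for 2 h of RA. With the replicate number as a block the count of genes was 52 for 2 h of RA and 372 for 6 h of RA. In the lists the count of pathway genes was 8 for 6 h of RA. The split into directions with quantile normalization was 1509 higher and 1885 lower for RA plus TNF against vehicle (median-centred 1445 and 919), 1138 higher and 1408 lower for TNF against vehicle (median-centred 829 and 572), 507 higher and 550 lower for RA against vehicle (median-centred 343 and 170), 808 higher and 769 lower for RA plus TNF against TNF (median-centred 570 and 333) and 1175 higher and 1187 lower for RA plus TNF against RA (median-centred 946 and 564). The split into directions with quantile normalization was 77 higher and 27 lower for 2 h of RA (median-centred 105 and 3), 302 higher and 172 lower for 6 h of RA (median-centred 1026 and 22), 733 higher and 813 lower for 16 h of RA (median-centred 295 and 583) and 680 higher and 637 lower for 40 h of RA in the course (median-centred 557 and 84). The split into directions with signals not centred on the median was 1520 higher and 1898 lower for RA plus TNF against vehicle, 1139 higher and 1348 lower for TNF against vehicle, 498 higher and 493 lower for RA against vehicle, 794 higher and 753 lower for RA plus TNF against TNF and 1152 higher and 1210 lower for RA plus TNF against RA. The split into directions with signals not centred on the median was 83 higher and 25 lower for 2 h of RA, 320 higher and 166 lower for 6 h of RA, 674 higher and 776 lower for 16 h of RA and 677 higher and 563 lower for 40 h of RA in the course. Leaving out the low-value filter or fitting all probe sets together moved no count by over 1.5 times. Signals near the floor, as for PTPN22 and TEC, and groups of 2 wells limit the precision.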
